A study of Mus musculus with 6 samples.

Results

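The 40 genes described here make sterols, fatty acids and the waxy lipids of sebum, and were taken from a table of 54532 mouse genes by an exact match of the gene name. All 40 names were found, 16 of them enzymes of cholesterol synthesis, 3 sterol sensors and regulators, 12 enzymes of fatty acid synthesis, elongation and desaturation, and 9 genes of sebaceous lipid handling. The counts came from 6 Smart-seq2 libraries (full-length cDNA amplified from few cells) of back skin epidermis from C57BL/6 mice, male and female, aged 4 weeks. The study compared cells enriched for Merkel cells, the touch-sensing neuroendocrine cells of the epidermis, with unselected epidermal cells. The NCAM-enriched group (3 libraries) held cells first captured on beads against PSA-NCAM, a polysialylated surface protein, and then sorted as stained for it and negative for the dead-cell dye DAPI. The bulk skin group (3 libraries) held DAPI-negative epidermal cells without that selection, so it may itself include Merkel cells. Each library was made from 500 sorted events, with no separate animals named for the replicates, so p-values measure only the spread between these libraries, which may be technical.

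Cholesterol is built from acetyl-CoA through mevalonate, squalene and lanosterol, and fatty acids are built from the same precursor by fatty acid synthase and then lengthened and desaturated. The sterol regulatory element-binding proteins switch on both sets of enzymes when sterols run low, and INSIG1 holds them in the endoplasmic reticulum when sterols are plentiful. In skin these lipids serve the water barrier of the outer epidermis, and sebaceous glands store them in droplets and release them as sebum rich in wax esters, cholesteryl esters and triglycerides.

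Library totals ran from 1343190 to 3798136 counts in the NCAM-enriched group and from 3333753 to 4481830 in bulk skin, so 1 count was worth 0.216 to 0.773 normalised CPM, the count scaled by the TMM-adjusted library size. The 2 groups also differed in the markers of the cells they could hold. The summed level of 12 Merkel cell markers was 1886, 1949 and 542 CPM in NCAM-enriched libraries 1, 2 and 3 against 152 to 202 CPM in bulk skin, with 6 of 11 tested genes called higher by edgeR and none at 0 in a whole group. The summed level of 15 suprabasal keratinocyte markers was 39017, 14696 and 20612 CPM against 1696 to 1918 CPM, with 9 of 14 tested genes called higher and Flg at 0 in bulk skin. NCAM-enriched library 2 stood apart in its fibroblast markers, which summed to 40985 CPM against 828 and 129.7 CPM in libraries 1 and 3 and 11921 to 22204 CPM in bulk skin. edgeR and DESeq2 called 0 of these 8 genes, the unadjusted p of edgeR was under 0.05 for 1, and limma-voom called 3 lower. T and NK cell markers summed to 42.5 to 239 CPM against 4655 to 5118 CPM, with 8 of 11 tested genes called lower, Cd3d and Trac at 0 in the NCAM-enriched group and Cd8a at 0 in bulk skin. Langerhans and myeloid markers summed to 511 to 1064 CPM against 12852 to 21319 CPM, with 8 of 12 called lower. The part of any of these cells in the results below was not tested. In pooled cells, fewer cells of a type and less RNA per cell cannot be told apart.

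Cholesterol and fatty acid enzymes as groups had higher summed levels in every NCAM-enriched library than in any bulk skin library, while the sebaceous genes did not. The 16 cholesterol genes summed to 1685, 1502 and 1211 CPM in the NCAM-enriched libraries and to 689, 733 and 758 CPM in bulk skin, means of 1466 ± 239 and 726 ± 35.0 CPM (SD, n = 3), a ratio of 2.02. The 12 fatty acid genes summed to 2391, 3920.3 and 1669 CPM against 865, 1107 and 1115 CPM, a ratio of the means of 2.58. The 3 sterol sensing genes summed to 515, 304 and 451 CPM against 269.8, 346 and 246 CPM, so their groups overlapped. The 9 sebaceous genes summed to 399.6, 736 and 269 CPM against 634, 492 and 582 CPM, with the highest and the lowest value both in the NCAM-enriched group.

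**Figure D1:**
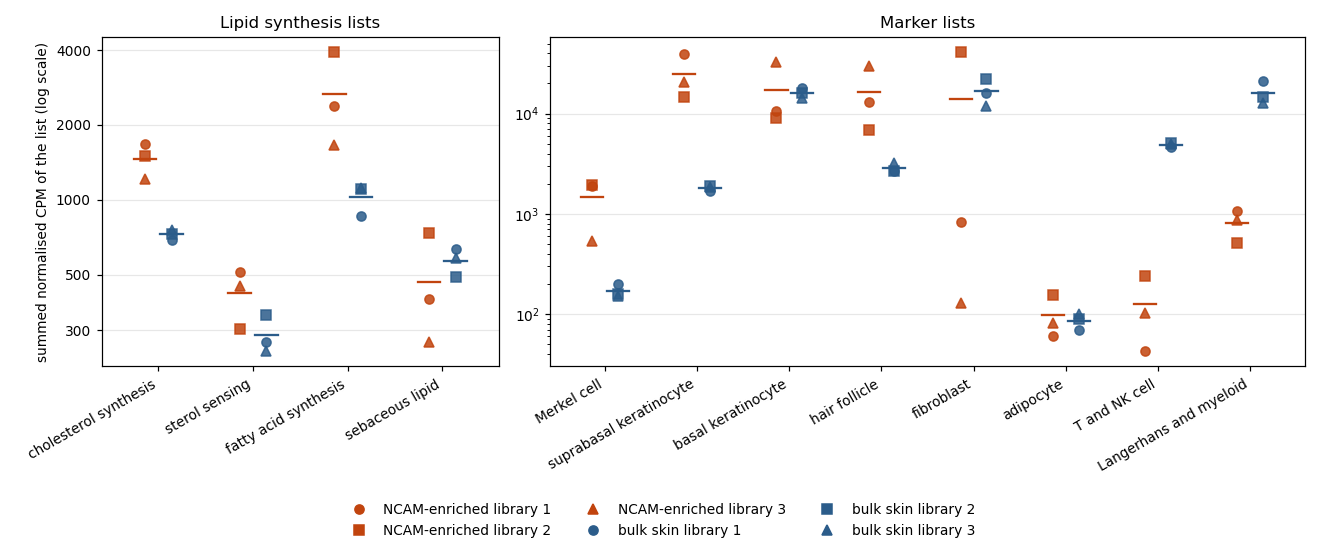
Summed normalised CPM (log scale) of the 4 groups of lipid genes on the left and of 8 lists of cell type markers on the right, by library. Points are libraries, marker shape gives the library number and short bars are the means of 3 libraries. The cholesterol sums run from 1211 to 1685 CPM in the NCAM-enriched libraries and from 689 to 758 CPM in bulk skin, while the fibroblast sums of the NCAM-enriched libraries span 129.7 to 40985 CPM.

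Gene by gene, the difference did not pass the test for any member. Of the 40 genes, 37 had enough counts to be tested, and edgeR's quasi-likelihood test, adjusted over all 13157 genes tested, called 0 of them higher and 0 lower at an adjusted p of at most 0.05, where 1.04% of all genes were called higher and 1.55% lower. At an unadjusted p under 0.05, the same fit gave 13 members higher and 2 lower, against 8.73% and 10.2% of all genes. DESeq2 called 6 higher (Sqle, Lss, Scd1, Elovl6, Soat1 and Cidea) and 2 lower (Insig1 and Mgst1), against 5.06% and 7.10% of all genes. With limma-voom 3 were called higher (Sqle, Lss and Elovl6) and 1 lower (Mgst1), against 2.67% and 6.45% of all genes. For 15 of the 37 all NCAM-enriched libraries lay above all bulk skin libraries (40.5%), where 11.1% of all genes did so, and for 4 all lay below (10.8%), where 19.3% of all genes did so. Without NCAM-enriched library 2 these counts were 19 and 5 of 37, against 19.3% and 25.9% of all genes. Without NCAM-enriched library 1 they were 15 and 7 of 37 (40.5% and 18.9%), against 15.9% and 26.5% of all genes. The median log2 fold change of the 37 members was 0.93, beside -0.07 for all genes tested, and 27 of the 37 (73.0%) were above 0, beside 47.7% of all genes.

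Of the 37 tested genes, 29 were over the filter's cutoff of 2.94 CPM in all 6 libraries. Scd3 and Cidea were over it in every library of the NCAM-enriched group only, Nsdhl, Fads1, Pparg and Mc5r in every library of bulk skin only, and Elovl3 and Awat1 in every library of neither group. Idi1, Fads2 and Awat2 were not tested. The SD was larger in the NCAM-enriched group than in bulk skin for 32 of the 37 genes and the SD relative to the mean for 28, and NCAM-enriched library 2 held the highest of the 3 values for 19 members and library 3 the lowest for 20.

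**Figure D2:**
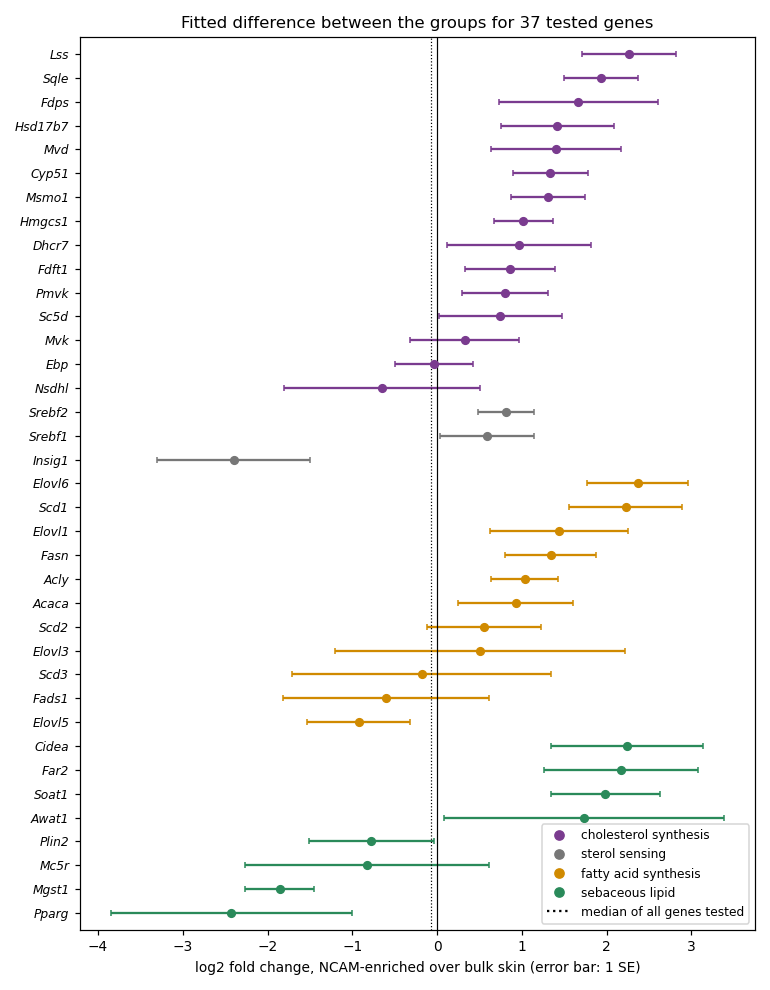
Log2 fold change of each tested member, NCAM-enriched over bulk skin, from edgeR, by group of genes, with bars of ± 1 SE and a dotted line at the median of all genes tested, -0.07. The cholesterol genes lie mostly right of 0, from -0.65 to 2.27, and the sebaceous genes lie on both sides, from -2.43 to 2.24.

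Promoters are shown first for the sterol genes, since the regulators of this pathway act there. RefSeq promoters on GRCm38.p6, running from 250 bases before to 50 bases after each gene's start, were matched for 31 of the 40 members (41 promoters). The letters CACCCCAC, the core of the classic sterol regulatory element, were searched on both strands and found in 1 of the 41 (2.44%), that of Hmgcs1, and in 2.87% of all 32851 promoters. With the looser letters CACNCCAC, which take in the first motif and were searched afterwards, Insig1 was added, 2 of 41 (4.88%) beside 6.24% of all promoters. The windows show each match in capitals, 136 bases before the start of Hmgcs1 at chr13:119690204-119690233 (plus strand), and 9 bases before the RefSeq start of Insig1 at chr5:28071392-28071421 (plus strand, with the match read on the opposite strand). The GENCODE gene model of Insig1 starts earlier, at 28071363, so by that model the match lies inside the gene.
Hmgcs1: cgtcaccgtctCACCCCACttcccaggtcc
Insig1: cgtgtagtgtcGTGGCGTGtaccttccatg

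The letters CCAAT, the core of the site of NF-Y, a factor known to work beside the sterol regulatory element-binding proteins, were also searched after those results. They were present on either strand in 28 of the 41 member promoters (68.3%) and in 37.4% of all promoters. Among the cholesterol synthesis genes 13 of 16 promoters (81.3%) held them, in 13 of the 13 genes matched. The windows show, in capitals, the match nearest the start for Lss, Cyp51 and Msmo1, enzymes that make or first modify lanosterol, 62 bases before the start of Lss at chr10:76531532-76531558 (plus strand, read on the opposite strand), 29 before that of Cyp51 at chr5:4104711-4104737 (minus strand) and 55 before that of Msmo1 at chr8:64733618-64733644 (minus strand). Each is printed 5′ to 3′ on the gene's own strand, and the starts are those of RefSeq. The GENCODE gene models of Cyp51 and Msmo1 start further upstream, at 4104746 and 64733792. By those models the matches of Cyp51 and Msmo1 lie inside the gene. A match describes these letters and is no measure of binding.
Lss: gtgatgctctgATTGGccgagctcgca
Cyp51: gctgtccgccaCCAATctggtcctgag
Msmo1: agtggggcggaCCAATtacgacaggcg

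Of the 15 tested genes of cholesterol synthesis 13 had a fold change above 0, and the median log2 fold change was 1.02. All NCAM-enriched libraries lay above all bulk skin libraries for 7 (46.7%, beside 11.1% of all genes) and below for 0 (beside 19.3%). edgeR called 0 of the 15 and its unadjusted p was under 0.05 for 5 (33.3%, beside 8.73% of all genes), all higher. DESeq2 and limma-voom each called the same 2 of the 15 higher, Sqle and Lss (13.3%, beside 5.06% and 2.67% of all genes).

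The first enzymes make mevalonate and turn it into isoprenoid units. Hmgcs1, the synthase that supplies HMG-CoA for mevalonate, was at 412, 267 and 262 CPM in the NCAM-enriched libraries and at 159.9, 144 and 161 CPM in bulk skin, with no overlap. Its log2 fold change was 1.02 ± 0.35 (SE) with an adjusted p of 0.150, and 0.0617 to 0.394 over the alternatives. Of the 50-base windows of Hmgcs1, the length of the reads, 11.6% also occur in transcripts of other genes, mainly Gm48342. The level of Hmgcs1 is therefore uncertain. Mvk, mevalonate kinase, was at 42.5, 17.8 and 97.6 CPM against 45.6, 43.2 and 37.8 CPM, the bulk values falling inside the NCAM-enriched range (log2 fold change 0.33 ± 0.65). Pmvk, which adds the next phosphate, was at 71.7, 41.7 and 74.6 CPM against 39.1, 43.2 and 25.8 CPM. Mvd, the decarboxylase after it, was at 37.7, 31.7 and 87.4 CPM against 11.2, 38.7 and 9.32 CPM. The groups of both enzymes overlapped through a single bulk skin library, number 2. Idi1, which makes dimethylallyl diphosphate, had 1, 0 and 6 counts against 5, 4 and 2 and was too low to test.

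The next enzymes join isoprenoids into squalene. Fdps, farnesyl diphosphate synthase, was at 15.4, 30.9 and 9.93 CPM against 5.90, 5.62 and 6.03 CPM, all NCAM-enriched libraries being higher (log2 fold change 1.67 ± 0.94, adjusted p 0.392). Fdft1, squalene synthase, was at 136, 84.2 and 41.1 CPM against 41.3, 40.2 and 62.8 CPM, with NCAM-enriched library 3 within the bulk range. Both genes share reads with other loci. Of their 50-base windows, the length of the reads, 26.2% for Fdps and 26.5% for Fdft1 also occur in transcripts of other genes, mainly Gm43738 and Ctsb, and the same holds for 25.3% of the windows of Idi1. How such reads were counted is not given in the sources used here, so these levels are uncertain.

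Sqle and Lss had the smallest p-values of the cholesterol genes. Sqle (chromosome 15, 59315077 to 59331192, plus strand), which adds oxygen to squalene in a rate-limiting step, was at 221, 149.9 and 146 CPM in the NCAM-enriched libraries and at 26.7, 49.9 and 58.1 CPM in bulk skin, means of 172 ± 41.8 and 44.9 ± 16.3 CPM (SD, n = 3). Every NCAM-enriched value was above 2 times any bulk value. The log2 fold change was 1.94 ± 0.44 with an adjusted p of 0.0550 in edgeR and 0.00170 in DESeq2, and 0.00170 to 0.285 over the alternatives. Lss (chromosome 10, 76531588 to 76557138, plus strand), which closes the ring to lanosterol, was at 124, 104 and 66.1 CPM against 11.2, 18.8 and 31.0 CPM, again with a gap between the groups. Its log2 fold change was 2.27 ± 0.55, the largest of the 15, with an adjusted p of 0.0670 in edgeR and 0.00249 in DESeq2, and 0.00249 to 0.285 over the alternatives.

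After lanosterol, demethylation enzymes separated from the later isomerase and reductase steps. Cyp51, the lanosterol demethylase, was at 132, 172 and 69.8 CPM against 48.7, 48.0 and 51.0 CPM (log2 fold change 1.33 ± 0.44, adjusted p 0.140, and 0.0431 to 0.353 over the alternatives). Msmo1, the sterol methyl oxidase, was at 176, 233 and 122 CPM against 60.5, 50.4 and 103 CPM (log2 fold change 1.31 ± 0.43, adjusted p 0.141). For Hsd17b7, a ketosteroid reductase of the same stage, the values were 26.0, 78.8 and 34.9 CPM against 15.2, 19.0 and 17.8 CPM. None of the 3 overlapped between groups. Nsdhl, the decarboxylating dehydrogenase that works with Msmo1, differed from them at 53.1, 0 and 28.7 CPM against 51.5, 30.7 and 46.6 CPM, with no count in NCAM-enriched library 2, which allows for up to 3 counts.

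The last steps overlapped throughout. Ebp, the sterol isomerase, was at 71.7, 129.8 and 72.1 CPM against 109, 117 and 54.6 CPM, a log2 fold change of -0.04 ± 0.46. Sc5d, a sterol desaturase, was at 61.6, 156 and 15.9 CPM against 42.5, 48.4 and 47.4 CPM, so NCAM-enriched libraries lay on both sides of bulk skin. Dhcr7, the reductase of the last step from dehydrocholesterol, was at 104, 6.95 and 80.3 CPM against 18.6, 35.0 and 44.4 CPM, high in libraries 1 and 3 and lowest of all in library 2.

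**Figure D3:**
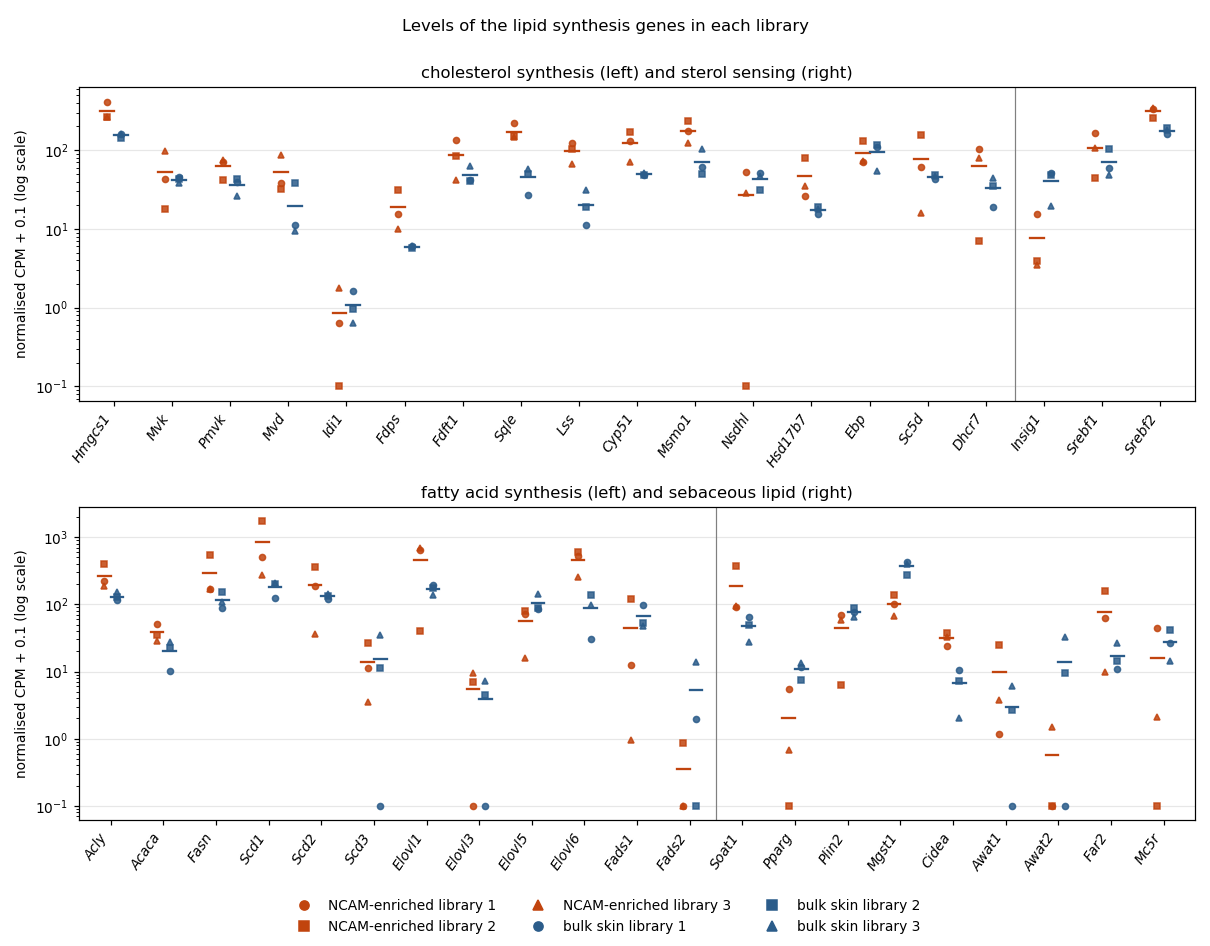
Normalised CPM plus 0.1 (log scale) of the 40 members in each of the 6 libraries, by group of genes. Points are libraries, marker shape gives the library number and bars are the means of 3 libraries. Sqle, Lss and Elovl6 show a gap between groups with the NCAM-enriched libraries higher, and Mgst1 and Insig1 show a gap with them lower. Elovl1 and Dhcr7 are split by a low value in NCAM-enriched library 2.

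Among the 3 regulators, Srebf2 and Srebf1 had log2 fold changes above 0 and Insig1 had one below. Srebf2, which encodes the sterol regulatory element-binding protein that mainly drives cholesterol genes, was at 332, 257 and 343 CPM in the NCAM-enriched libraries and at 159.6, 193 and 178 CPM in bulk skin, without overlap (log2 fold change 0.81 ± 0.33, adjusted p 0.221). Srebf1, whose product mainly drives fatty acid genes, was at 167, 44.0 and 105 CPM against 58.7, 104 and 48.5 CPM, and its groups overlapped (log2 fold change 0.59 ± 0.55). Insig1 (chromosome 5, 28071363 to 28078662, plus strand), the retention protein that is itself a target of the pathway, was at 15.4, 3.86 and 3.41 CPM against 51.5, 48.6 and 19.7 CPM. All its NCAM-enriched libraries were below bulk skin. The log2 fold change was -2.40 ± 0.90 with an adjusted p of 0.191 in edgeR and 0.0475 in DESeq2, and 0.0475 to 0.470 over the alternatives. Its direction was thus opposite to that of 13 of the 15 tested cholesterol enzymes, a difference for which no test was made.

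Fatty acid genes had a median log2 fold change of 0.93 over 11 tested genes, with 8 above 0 and 3 below. For 5 of them (45.5%, beside 11.1% of all genes) all NCAM-enriched libraries were above bulk skin, and for 1 (Elovl5; 9.09%, beside 19.3%) all were below. edgeR called 0 of the 11 and its unadjusted p was under 0.05 for 4 (36.4%, beside 8.73% of all genes), all higher. DESeq2 called 2 higher (Scd1 and Elovl6, 18.2%, beside 5.06% of all genes) and limma-voom 1 higher (Elovl6, 9.09%, beside 2.67%).

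The enzymes that build palmitate were higher in every NCAM-enriched library but close to bulk skin in some. Acly, which cleaves citrate to acetyl-CoA, was at 223, 393 and 186 CPM against 114, 126 and 150.0 CPM (log2 fold change 1.04 ± 0.39, adjusted p 0.197). Acaca, which makes malonyl-CoA, was at 51.0, 34.8 and 28.7 CPM against 10.2, 22.0 and 27.7 CPM, NCAM-enriched library 3 and bulk skin library 3 being nearly level. Its windows are shared for 30.4%, mainly with the locus Gm5182, so its level is uncertain. Fasn, fatty acid synthase, was at 168, 542 and 167 CPM against 88.2, 152 and 106 CPM (log2 fold change 1.34 ± 0.54, adjusted p 0.217), with library 2 far above the others.

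Among the stearoyl-CoA desaturases, which put the first double bond into saturated fatty acids, the members differed. Scd1 (chromosome 19, 44394455 to 44407879, minus strand) was at 511, 1729 and 269 CPM against 125, 203 and 209 CPM, means of 836 ± 783 and 179 ± 46.5 CPM (SD, n = 3). All NCAM-enriched libraries were higher, but they spanned 269 to 1729 CPM. The log2 fold change was 2.22 ± 0.67 with an adjusted p of 0.108 in edgeR and 0.0147 in DESeq2, and 0.00106 to 0.348 over the alternatives. Scd2, at 189.7, 358 and 35.8 CPM against 119, 134 and 144 CPM, had NCAM-enriched libraries on both sides of bulk skin. Scd3, a form known from sebaceous glands, was at 11.2, 26.3 and 3.41 CPM against 0, 11.2 and 34.5 CPM, with a log2 fold change of -0.18 ± 1.53. These near-copies share between 3.97% and 6.57% of their windows with other genes, mostly each other. Their counts summed with those of Scd4 gave a log2 fold change of 1.68 ± 0.66 with an adjusted p of 0.207.

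Elongases add carbons to fatty acids, and their values went in both directions. Elovl6 (chromosome 3, 129532355 to 129638495, plus strand), which takes palmitate to stearate, was at 516, 591 and 258 CPM in the NCAM-enriched libraries and at 30.1, 138 and 96.2 CPM in bulk skin, means of 455 ± 175 and 88.1 ± 54.4 CPM (SD, n = 3). The groups did not overlap. Its log2 fold change of 2.37 ± 0.59 was the largest of all 37 members, with an adjusted p of 0.0697 in edgeR and 0.00322 in DESeq2, and 0.000470 to 0.270 over the alternatives. Elovl1, which makes very long saturated chains, was at 638, 39.4 and 695 CPM against 195, 174 and 138 CPM. Its libraries 1 and 3 were high and library 2 was the lowest of the 6, and the adjusted p was 0.393 with all libraries and 0.00993 without NCAM-enriched library 2, the lowest of its alternatives, which ran up to 0.716. Elovl3, known from sebaceous glands and hair follicles, was at 0 to 9.36 CPM in the NCAM-enriched group and 0 to 7.13 CPM in bulk skin. Elovl5, which lengthens polyunsaturated chains, was at 71.2, 79.6 and 15.9 CPM against 84.1, 88.6 and 142 CPM, lower in every NCAM-enriched library (log2 fold change -0.93 ± 0.61, adjusted p 0.470).

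The desaturases of polyunsaturated fats were low or scattered. Fads1 was at 12.2, 118 and 0.851 CPM against 96.9, 53.4 and 47.2 CPM, and NCAM-enriched library 2 was the highest of the 6. Fads2 had 0, 1 and 0 counts against 6, 0 and 50 and was too low to test. Its pooled counts, scaled by library size, were 32.6 times higher in bulk skin, with a 95% exact interval of 5.62 to 1312 that covers counting error only, and nearly all of them lay in bulk skin library 3.

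Sebaceous lipid genes had no common direction, with 4 of the 8 tested genes above 0 and 4 below and a median log2 fold change of 0.48. That median was -0.28 without NCAM-enriched library 2, -1.22 without library 1, -0.33 without library 3 and -0.82 without bulk skin library 1. Awat2, not tested in the main fit, entered each of these fits. The set of genes thus changed along with the libraries, and the shift cannot be put down to a library alone. edgeR called 0 of the 8. Its unadjusted p was under 0.05 for 3 higher and 1 lower, against 8.73% and 10.2% of all genes. DESeq2 called Soat1 and Cidea higher and Mgst1 lower, against 5.06% and 7.10% of all genes. With limma-voom 0 were called higher and 1 lower (Mgst1), against 2.67% and 6.45% of all genes. All NCAM-enriched libraries lay above all bulk skin libraries for 2 of the 8 and below for 2, against 11.1% and 19.3% of all genes.

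Mgst1 carried most of the sebaceous sum in bulk skin, 55.2% to 68.3% of it, and 18.5% to 25.4% in the NCAM-enriched libraries. Mgst1 (chromosome 6, 138140316 to 138156755, plus strand), a microsomal glutathione transferase that is abundant in sebaceous cells, was at 101, 136 and 67.0 CPM in the NCAM-enriched libraries and at 433, 272 and 397 CPM in bulk skin, means of 101 ± 34.5 and 367 ± 84.8 CPM (SD, n = 3). Every bulk skin value was higher than any NCAM-enriched value. The log2 fold change was -1.86 ± 0.40 with an adjusted p of 0.0509 in edgeR, the smallest of the 37, and 0.00166 in DESeq2, with 0.00166 to 0.256 over the alternatives. Pparg, the nuclear receptor that drives sebocyte and adipocyte differentiation, was at 5.31, 0 and 0.568 CPM against 11.5, 7.35 and 13.4 CPM, lower in every NCAM-enriched library (log2 fold change -2.43 ± 1.43, adjusted p 0.415). Plin2, a coat protein of lipid droplets, was at 68.5, 6.18 and 57.9 CPM against 76.1, 89.3 and 63.6 CPM, with library 1 inside the bulk range.

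Soat1 and Cidea went the other way. Soat1 (chromosome 1, 156424525 to 156474331, minus strand), which esterifies cholesterol for storage, was at 91.9, 373 and 94.8 CPM against 65.5, 48.6 and 27.1 CPM. The groups did not overlap, and the log2 fold change was 1.98 ± 0.64 with an adjusted p of 0.133 in edgeR and 0.0407 in DESeq2, and 0.0243 to 0.347 over the alternatives. Cidea, a droplet protein that enlarges droplets, was at 23.9, 37.1 and 32.3 CPM against 10.6, 7.13 and 1.92 CPM, a narrow range in the NCAM-enriched group (log2 fold change 2.24 ± 0.90, adjusted p 0.217 in edgeR and 0.0499 in DESeq2, and 0.0499 to 0.469 over the alternatives).

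The wax ester genes were low or uneven. Far2, which reduces fatty acids to the alcohols of wax esters, was at 62.7, 159 and 9.65 CPM against 10.9, 14.3 and 26.0 CPM, NCAM-enriched library 3 being the lowest of the 6 (log2 fold change 2.17 ± 0.91, adjusted p 0.241, and 0.0423 without that library, the lowest of alternatives that ran up to 0.633). It shares 10.8% of its windows with other genes, mainly Ergic2, which overlaps it on the opposite strand and cannot be told apart in unstranded reads. Awat1, a wax ester synthase, was at 1.06, 24.7 and 3.69 CPM against 0, 2.59 and 6.03 CPM. Awat2, the other wax ester synthase, had 0, 0 and 5 counts against 0, 43 and 117 and was not tested. Mc5r, the melanocortin receptor of sebocytes, was at 44.6, 0 and 1.99 CPM against 26.4, 41.9 and 14.3 CPM, so library 1 alone held most of the NCAM-enriched signal.

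Adipocytes also use many of these genes, and most of their defining markers were at or near 0. Of 10 adipocyte markers, Cidec and Ucp1 had 0 counts in all 6 libraries and Lep had 0 in the NCAM-enriched group, 3 were tested, and the summed level ran from 60.0 to 154 CPM against 68.9 to 100.1 CPM. edgeR called 0 of the 3, while its unadjusted p was under 0.05 for 1, lower in the NCAM-enriched group, and DESeq2 and limma-voom each called 1 lower. Adipoq, the fat cell hormone adiponectin, which was named after its values were seen, had 0, 41 and 21 counts in the NCAM-enriched libraries and 0, 1 and 0 in bulk skin. It does not stand for the list. The log2 fold changes of the 3 tested markers ran from -5.24 to 0.51, with 2 above 0 and 1 below. The part of fat cells in these results was not tested.

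Per kilobase of exon, which allows levels of different genes to be compared, the order of the members differed between groups. The highest mean levels in the NCAM-enriched group were 171 ± 160.0 CPM per kilobase for Scd1 and 168 ± 133 for Elovl1, followed by 70.8 ± 27.2 for Elovl6 and 68.3 ± 18.6 for Hmgcs1 (SD, n = 3). Scd1 and Elovl1 did not differ beyond their spread, nor did Elovl6 and Hmgcs1. In bulk skin Mgst1 was highest at 182 ± 42.1 CPM per kilobase, ahead of Elovl1 at 62.0 ± 10.7 and Ebp at 40.4 ± 14.7. Scd1 at 36.6 ± 9.50 and Hmgcs1 at 33.7 ± 2.14 came next and lay within the spread of Ebp. In both groups the place of Hmgcs1 is uncertain through its shared windows.

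Of 70 other genes of the same pathways, listed by pathway, 55 were tested. edgeR called 4 of them higher (Elovl4, Acacb, Acsl1 and Dgat2) and 0 lower, against 1.04% and 1.55% of all genes. The median log2 fold change of the 55 was 0.23, beside -0.07 for all genes tested. At an unadjusted p under 0.05 the same fit gave 13 higher and 4 lower, against 8.73% and 10.2% of all genes. DESeq2 called 11 higher and 1 lower, against 5.06% and 7.10% of all genes. With limma-voom the counts were 9 and 1, against 2.67% and 6.45% of all genes. By list, 0 of 6 other cholesterol genes, 0 of 15 other sterol sensing and transport genes, 3 of 20 other fatty acid genes and 1 of 14 other sebaceous and droplet genes were called by edgeR.

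Elovl4 (chromosome 9, 83778692 to 83806277, minus strand), the elongase that makes the ultra-long acyl chains of barrier ceramides, rose from 11.8, 29.6 and 59.2 CPM in bulk skin to 586, 522 and 334 CPM in the NCAM-enriched libraries (log2 fold change 3.84 ± 0.62, adjusted p 0.0205). Acacb (chromosome 5, 114146535 to 114250761, plus strand), the mitochondrial acetyl-CoA carboxylase, rose from 2.17, 7.13 and 6.03 CPM to 72.8, 122 and 67.3 CPM (log2 fold change 4.07 ± 0.67, adjusted p 0.0216). Acsl1, which activates long-chain fatty acids and overlaps Gm45244 on the opposite strand over 9.91% of its exons, rose from 26.7, 59.2 and 56.2 CPM to 320.4, 498 and 213 CPM (log2 fold change 2.86 ± 0.49, adjusted p 0.0244). All 3 passed in 13 of 16 alternatives and missed without each single bulk skin library, where the adjusted p reached 0.153, 0.149 and 0.178. Dgat2, which closes triglyceride synthesis, rose from 45.6, 83.2 and 75.9 CPM to 633, 146 and 663 CPM (log2 fold change 2.82 ± 0.60, adjusted p 0.0481), passed in 11 of 16 alternatives, and missed without any bulk skin library, without NCAM-enriched library 1 and in the blocked fit, with adjusted p-values up to 0.282.

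The other named genes of these lists were among those with the 2 smallest p-values of a list, and they did not pass. Abcg1, a cholesterol exporter switched on by the oxysterol receptors LXR, was at 10.1, 19.3 and 9.36 CPM against 64.9, 78.9 and 71.8 CPM, lower in all (log2 fold change -2.49 ± 0.56, adjusted p 0.0561). Krt79, a keratin of the sebaceous duct and upper hair follicle, was at 4951, 961 and 10334 CPM against 546, 488 and 689.5 CPM (log2 fold change 3.24 ± 0.81, adjusted p 0.0691). DESeq2 called both, with adjusted p-values of 0.000352 for Abcg1 and 0.000197 for Krt79, and over the alternatives the adjusted p ran up to 0.270 and 0.285. Krt79 also stands in the list of 12 hair follicle markers, whose sum, Krt79 included, was 13153, 6806 and 29680.4 CPM against 2669 to 3230.0 CPM. Of its 10 tested genes 1 was called higher and 1 lower. Their median log2 fold change was -0.03, with 5 above 0 and 5 below, so the sum does not stand for the list. Shh was at 0 in all libraries and Krt75 at 0 in the NCAM-enriched group.

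**Figure D4:**
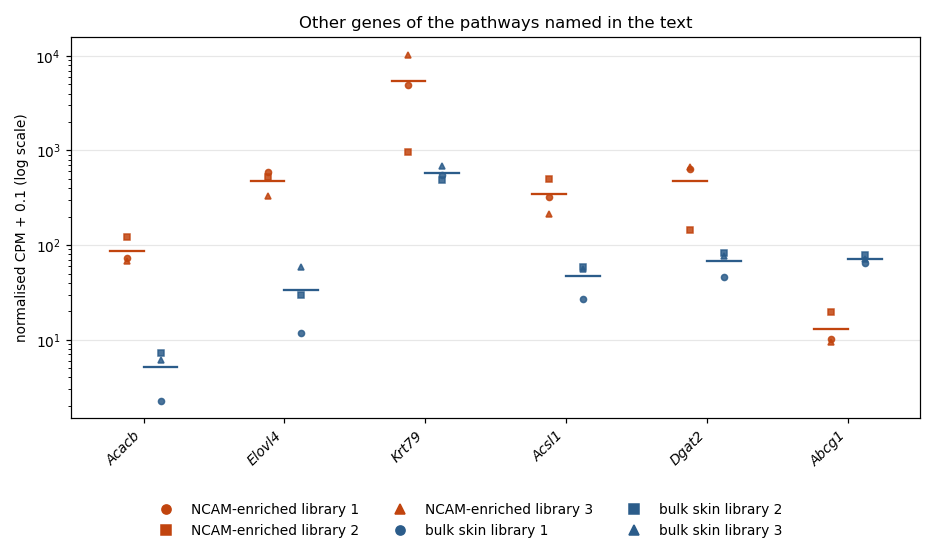
Normalised CPM plus 0.1 (log scale) of the 6 named genes that are not among the 40, by library. Points are libraries, marker shape gives the library number and bars are the means of 3 libraries. Elovl4 lies at 334 to 586 CPM in the NCAM-enriched libraries and at 11.8 to 59.2 CPM in bulk skin, and Abcg1 lies lower in every NCAM-enriched library.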

How the data were processed

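The deposited table holds unnormalised counts of reads for each gene. The authors clipped adapters and polyA, removed abundant sequences, aligned 50-base single-end reads to GRCm38 with STAR and ran featureCounts. Its annotation release, strand setting and treatment of reads with several matches were not given in the sources used here. Smart-seq2 does not mark the strand. It carries no molecular identifiers, so PCR copies are counted, and the exact interval and the floor of 3 counts cover counting error only.

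Groups came from the labels. The test was edgeR's quasi-likelihood F-test (edgeR 4.0.16, R 4.3.3) on both groups without covariates, with TMM factors and genes kept by filterByExpr. P-values were adjusted by Benjamini-Hochberg over 13157 genes, and called means at most 0.05. The common coefficient of biological variation was 0.744. The SE is derived from the test, as the size of the log2 fold change over the root of F. Alternatives were DESeq2 1.42.0, limma-voom (limma 3.58.1), other size factors, filters and dispersions, the replicate number as a block, removal of mitochondrially encoded genes, summing Scd1 to Scd4, and leaving out each library. The fit was tested on simulated data.

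All 40 members are named. Of the other pathway lists, the genes called and the 2 of each list with the smallest p are named, except 3 that are not reported here. Markers are named when at 0 in a whole group, except Adipoq, which was named after its values were seen. Members and lists were chosen with earlier results of these data known. Replicate numbers were not treated as pairs, since deviations of same-numbered libraries from their group means correlated at 0.0226, 0.000250 and -0.00436. Positions and exonic lengths came from GENCODE M21 (54495 of 54532 gene IDs found). Promoters came from RefSeq, and protein sequences were not used here. Figures were drawn with matplotlib 3.10.9.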

Additional observations from a re-analysis of the deposited data

How the results depend on the processing

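Genes called higher over the whole table numbered 137 in the edgeR fit, 661 with DESeq2, 351 with limma-voom, 769 when every gene with a count was kept, 50 in the fit with a replicate block, and 0 to 1099 with 1 library left out. Genes called lower numbered 204, and under the same settings 928, 849, 741, 92, and 13 to 733. The counts of 0, 0 and 1 higher came without bulk skin library 1, 2 and 3, where 2115, 2237 and 2178 genes had an unadjusted p under 0.05, against 2493 in the full fit. The cause of these changes was not tested.

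Members called higher numbered 0, but 6 with DESeq2, 3 with limma-voom, 5 when every gene with a count was kept, 1 with at least 20 counts in 3 libraries, and 0 to 6 with 1 library left out (3 without NCAM-enriched library 2, 6 without library 3). Members called lower numbered 0, but 2 with DESeq2 and 1 each with limma-voom, no normalization factors, at least 1 count, at least 20 counts and robust dispersion, and 0 to 1 with 1 library left out. The replicate block called 0 members in either direction. Over these settings 11 members were called in at least 1 of 16 alternatives and 30 of 37 kept their sign in every one.

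Chosen after seeing the data, the counts of members without overlap were repeated with 1 library left out, giving 15 to 19 higher and 4 to 7 lower of 37, beside shares of all genes of 13.0% to 19.3% (higher) and 22.0% to 28.8% (lower). The median log2 fold change of cholesterol genes was 1.02 and ran from 0.86 to 1.14 with 1 library left out. That of sebaceous genes was 0.48, but -0.84 when every gene with a count was kept, -0.75 with at least 20 counts, and -1.22 to 0.56 with 1 library left out. The sebaceous genes in these fits were not the same set. Awat2 entered when every gene with a count was kept and in some fits with 1 library left out. Awat1 dropped out with at least 20 counts.

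The median over all genes was -0.07, but -0.37 with limma-voom, -0.36 with the block and 0.08 when every gene with a count was kept. Signs reversed for 7 members, none of them called where they did. With limma-voom the log2 fold change was -0.29 for Sc5d, -0.26 for Scd2 and 1.02 for Scd3, and with the block it was 1.14 for Scd3. With 1 library left out it ran from -0.54 to 0.72 for Mvk, -0.39 to 0.087 for Ebp, -0.28 to 1.16 for Sc5d, -0.26 to 0.97 for Scd2, -1.10 to 1.16 for Scd3, -0.27 to 1.26 for Elovl3 and -0.26 to 2.74 for Awat1.

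At this depth Idi1, Fads2 and Awat2 were too low to test. Values of 0 were not limited to low genes. Of genes averaging 10 CPM or more, 4.05%, 10.3% and 4.04% were at 0 in NCAM-enriched libraries 1, 2 and 3 and 0.366% to 0.694% in bulk skin, with Mc5r and Nsdhl at 0 in NCAM-enriched library 2 and Scd3 at 0 in bulk skin library 1.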
